A study of Mus musculus with 13 samples.

Results

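Gut endoderm cells were looked for in mouse embryos at E8.5 and E10.5. They were taken as barcodes that carried both an epithelial transcript and transcripts of the FoxA genes. A barcode entered the set, and is called a member here, when it held at least 2000 unique molecular identifiers (UMIs) and 500 genes, at least 2 UMIs of Epcam, at least 2 UMIs of Foxa1 and Foxa2 together, no UMI of T and fewer than 10 UMIs of Ttr. There were 235 members among 34605 barcodes of that depth in 3 embryo libraries, and the 10 matrices analysed, of 13 samples in the series, held 76191 such barcodes. E8.5 (replicate 2) gave 53 members, which is 0.937% of its barcodes with an exact 95% interval of 0.703 to 1.22%. E10.5 gave 91 members in replicate 1 (0.620%, 0.5 to 0.761%) and 91 members in replicate 2 (0.637%, 0.513 to 0.782%). The other barcodes with at least 2 Epcam UMIs, 572 at E8.5 and 705 and 643 at E10.5, served as the comparison and are called other Epcam-positive barcodes. The study followed mouse heart development by droplet-based single-cell RNA sequencing, with embryos at E8.5 and E10.5 and with hearts from E12.5 to P3. All samples were wild-type C57Bl/6J, untreated, and the embryos had lost head and limbs before they were dissociated. E8.5 replicate 1, E16.5 replicate 2 and P3 replicate 2 were not analysed here, and E8.5 therefore entered no test. The labels do not say whether the E10.5 libraries came from separate embryos, so that p-values measure the spread between these libraries, which may be technical.

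The definitive endoderm is the inner germ layer, which folds into a tube and is then divided along the body axis into foregut, midgut and hindgut. Foxa1 and Foxa2 encode forkhead transcription factors that open chromatin in endoderm, and Foxa2 is also used in the notochord and in the floor plate of the neural tube, which are sources of the ligand Shh like the gut epithelium itself. Epcam encodes an adhesion protein of epithelia, T (brachyury) marks the notochord, and Ttr encodes a transport protein of visceral endoderm and liver. Nkx2-1 is needed for lung and thyroid, Sox2 marks the foregut, Pdx1 the pancreas and duodenum, and Cdx2 the midgut and hindgut.

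In the 3 embryo libraries members held medians of 23755 UMIs at E8.5 and 17452 and 21244 UMIs at E10.5, against 24429.5, 18614 and 18037 in the other Epcam-positive barcodes. None of the members had more than 5% of its UMIs from mitochondrial genes. Between 7.55 and 13.2% of the members were marked as doublets, where 8.57 to 22.1% of the other Epcam-positive barcodes were. Pairs of libraries shared 104 to 263 barcode sequences among the barcodes of that depth. The same conditions found 0 members among 41586 barcodes of the 7 heart matrices, which allows a share of up to 0.00721%, and 7 of those barcodes had at least 2 Epcam UMIs. All intervals and limits given here cover counting error only.

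The genes of the rule are given as a description, since they chose the members. Foxa2 had a UMI in 43 of 53 members at E8.5 and in 75 and 66 of 91 at E10.5, and Foxa1 in 44, 69 and 71. Both FoxA genes were seen in 34 members at E8.5 and in 53 and 46 at E10.5, while 10, 16 and 25 members had UMIs of Foxa1 alone. With a median of 3 FoxA UMIs per member in each library, no UMI of Foxa2 does not show that a cell lacked it. Mesenchymal barcodes were those with no Epcam UMI and at least 2 of Pdgfra, with medians of 29690.5, 20890 and 19669 UMIs. Foxa2 was seen in 2.47% of them at E8.5 and in 2.36 and 1.55% at E10.5. Of these 8, 20 and 12 barcodes, 3, 7 and 8 had at least 2 UMIs of Foxa2. The source of these UMIs was not tested. The depth of a barcode bore on the rule. After each barcode was thinned to 5000 UMIs, 5 barcodes met the rule at E8.5 and 11 and 11 at E10.5.

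The FoxA threshold cut through a range without a gap. Among Epcam-positive barcodes without T and with Ttr under 10, 39 at E8.5 and 55 and 55 at E10.5 had 1 FoxA UMI, where 19, 31 and 27 members had exactly 2. Levels are given as CPM, the UMIs of a gene summed over a group and scaled to a total of 1000000 UMIs for all genes. In E10.5 replicate 1 Shh stood at 2.82 CPM with no FoxA UMI, at 42.7 with 1, at 50.8 with 2 and at 81.7 with 3 or more. In replicate 2 the same steps held 2.93, 53.0, 70.9 and 91.8 CPM, and at E8.5 they held 0.606, 19.01, 27.4 and 53.9 CPM. At E10.5 barcodes with 1 FoxA UMI were closer in CPM of Shh to all members (70.9 and 85.9 CPM) than to barcodes with none, and at E8.5 they were closer to barcodes with none, since all members there held 46.6 CPM. The other genes did not follow each step. In E10.5 replicate 1 Gata6 stood at 2.43, 15.2, 8.72 and 39.3 CPM over the same steps and Wnt6, a gene of surface ectoderm, at 165, 40.8, 75.5 and 14.9 CPM, so that the 31 members with exactly 2 FoxA UMIs were lower in Gata6 and higher in Wnt6 than the 55 barcodes with 1. In replicate 2 Gata6 stood at 15.8 CPM with 1 and 17.3 with 2, and Wnt6 at 43.7 and 34.6. On the Epcam side, 136 barcodes at E8.5 and 295 and 255 at E10.5 had at least 2 FoxA UMIs but none of Epcam. Those barcodes held 111 and 122 CPM of Shh at E10.5 but 14.4 and 15.4 CPM of Krt18, a keratin of simple epithelia, and 16.6 and 15.6 CPM of Sox1, a neural gene. Barcodes with 1 Epcam UMI numbered 8, 19 and 14, and members with exactly 2 Epcam UMIs numbered 6, 14 and 13.

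**Figure D1:**
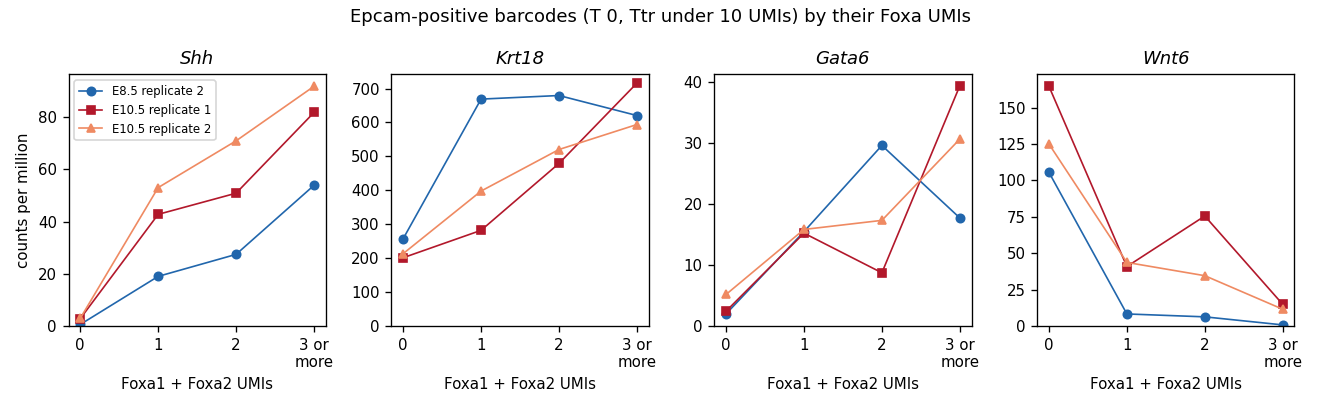
Levels of Shh, Krt18, Gata6 and Wnt6 (y axis, CPM of summed UMIs) in Epcam-positive barcodes grouped by their Foxa1 plus Foxa2 UMIs (x axis), with 1 line for each of the 3 libraries. Members are the groups with 2 and with 3 or more UMIs. Shh was higher at each step in each library, from 2.82 to 81.7 CPM in E10.5 replicate 1, and Wnt6 was highest with no FoxA UMI.

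The label was checked against genes that the rule did not use, in lists chosen with earlier results of these data known. Of 14 endoderm transcription factors 12 were tested at E10.5, and 7 were higher in members and none lower in the quasi-likelihood test of edgeR (Benjamini-Hochberg adjusted p, threshold 0.05). Of all 12142 genes tested 4.2% were higher and 3.55% lower, 7.75% in either direction. The median log2 fold change of the 12 was 1.17, against -0.01 over all genes tested. A gene with few UMIs in 1 group could pass the low-count filter only through the other group. Counts and medians of the lists are therefore a description. The summed level of the list was 83.2 CPM in members against 70.0 CPM in the others at E8.5, a smaller difference. At E10.5 it was 141 and 123 CPM in members and 58.0 and 60.8 CPM in the others. The others included barcodes with at least 2 FoxA UMIs that the rule left out for T or for Ttr. At E8.5 there were 21 with T and 41 without T but with 10 or more Ttr UMIs. At E10.5 there were 5 and 11 in replicate 1 and 5 and 14 in replicate 2. Their part in the levels of the others was not tested. Gata4, which acts in foregut endoderm and heart, stood at 15.8 and 9.76 CPM in members of replicates 1 and 2 and at 1.34 and 1.91 CPM in other Epcam-positive barcodes. Members were higher in both libraries, with a log2 fold change of 2.95 ± 0.35 (SE) and an edgeR adjusted p of 1.53e-04. Gata6 stood at 28.6 and 26.8 CPM against 5.24 and 8.45, with a log2 fold change of 2.01 ± 0.24. Foxa3, Onecut1, Onecut2 and Elf3 were also higher, Elf3 not past the threshold with DESeq2. Sox17, which marks nascent definitive endoderm, stood at 0.51 and 1.95 CPM in members and at 2.62 and 2.42 CPM in the others and did not pass the test.

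Epithelial junction and keratin genes were also higher. Of 18 tested, 10 were higher and none lower, where 4.2% of all genes tested were higher and 3.55% lower. The median log2 fold change of the 18 was 0.54, and Cldn4 and Rab25 among the higher genes lost their calls with DESeq2. Krt8 stood at 416 and 421 CPM in members and at 156 and 164 CPM in other Epcam-positive barcodes (log2 fold change 1.37 ± 0.07, adjusted p = 5.39e-08 by edgeR). Krt18, its partner in keratin filaments, stood at 633 and 573 CPM against 214 and 236 CPM. Krt19 and Krt7 had log2 fold changes of 1.36 and 1.35, F11r, a tight junction protein, of 0.94, and Cldn6 of 0.69. Cdh1 (E-cadherin) stood at 34.7 and 41.5 CPM against 23.1 and 21.4 CPM. The summed level of the list was 2248 and 2280 CPM in members and 1181 and 1247 CPM in the others at E10.5, and 2069 against 1596 CPM at E8.5.

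**Figure D2:**
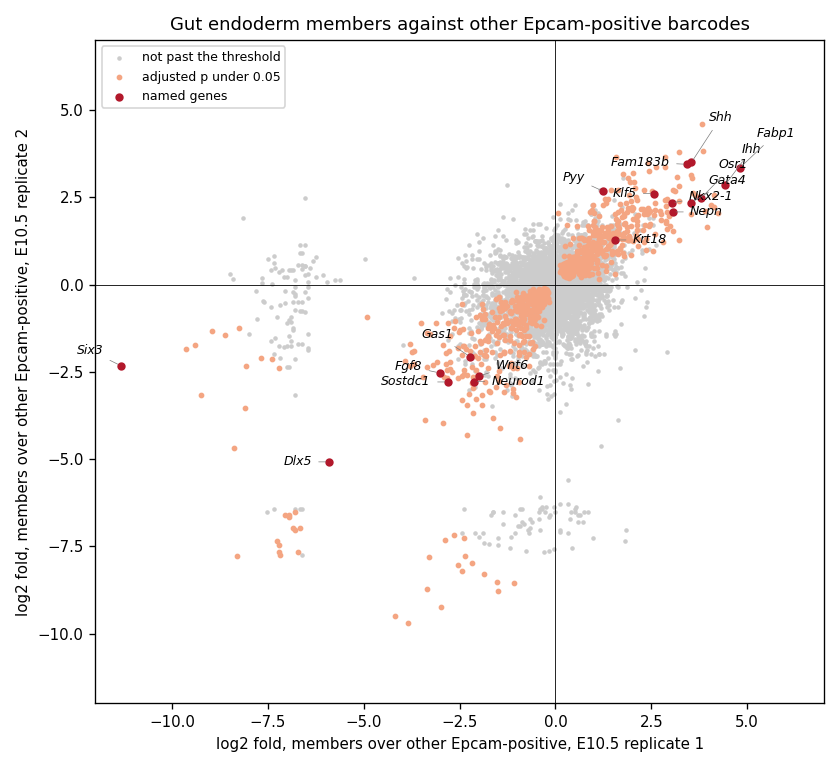
Log2 fold of members over other Epcam-positive barcodes in E10.5 replicate 1 (x axis) and replicate 2 (y axis), 1 point per gene tested, with genes past the edgeR threshold in orange and some of the named genes in red. Called genes lay in the same direction in both libraries, with Shh and Fam183b near 3.5 on both axes. Points beyond about -6 on an axis are genes at or near 0 UMIs in 1 group, where the fitted fold is no measure of size.

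In all, 510 of 12142 genes were higher in members at E10.5 and 431 were lower. The arms were cut from the same barcodes by FoxA UMIs, so the test speaks of repeatability over 2 libraries. DESeq2 called 250 higher and 165 lower, and the test on barcodes thinned to 5000 UMIs called 119 and 80. Of the 941 calls 188 were made again after thinning and 4 had the opposite sign. The E8.5 library, which the fit did not use, had 406 of the 510 higher genes at a higher level in members than in other Epcam-positive barcodes (79.6%, against 46.5% of all genes tested) and 364 of the 431 lower genes at a lower level (84.5%, against 53.5%). These shares at E8.5 are a description of 1 library.

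Shh was among the genes with the largest fold. It stood at 70.9 and 85.9 CPM in members at E10.5 and at 6.04 and 7.57 CPM in other Epcam-positive barcodes, and at 46.6 against 6.4 CPM at E8.5. All 3 libraries had members above the others, and the log2 fold change at E10.5 was 3.52 ± 0.15 with an adjusted p of 1.53e-08 by edgeR. A UMI of Shh was found in 30 of 53 members at E8.5 and in 52 and 59 of 91 at E10.5. Ihh, the related ligand of later gut epithelium, stood at 20.4 and 12.2 CPM against 0.94 and 1.69 CPM (log2 fold change 3.61 ± 0.36). Ihh was detected in 24 and 17 members at E10.5 and in 8 at E8.5, where its level was 8.15 CPM in members and 6.27 in the others. Ptch1, the receptor of both ligands and itself a target of the pathway, stood at 66.3 and 65.9 CPM against 31.0 and 32.7 CPM (log2 fold change 1.04 ± 0.10). On the other side, the coreceptors Gas1 and Cdon were lower, Gas1 at 30.1 and 30.2 CPM against 140 and 127 CPM (log2 fold change -2.16 ± 0.11) and Cdon with a log2 fold change of -1.38. Gli3, a transcription factor of the pathway, had a log2 fold change of -0.53 that did not pass the threshold with DESeq2. Of 13 hedgehog genes tested, 3 were thus higher and 3 lower, with a median of -0.23. Over all genes tested the shares were 4.2% higher and 3.55% lower.

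Besides Shh, the 10 genes named for their fold included Fabp1, Osr1, Dcn, Nkx2-1, Nepn, Klf5, Pyy, Fam183b and 1700011H14Rik. Fam183b stood at 81.6 and 81.0 CPM in members and at 7.52 and 7.42 CPM in the others, with UMIs in 56 and 48 of 91 members, and had the smallest p of all genes outside the rule (log2 fold change 3.43 ± 0.12, adjusted p = 5.48e-09 by edgeR). At E8.5 it stood at 30.9 against 11.7 CPM. Osr1, a zinc finger factor of foregut and of intermediate mesoderm, stood at 80.1 and 47.8 CPM against 5.71 and 8.52 CPM. Klf5, a factor of epithelial growth, stood at 33.2 and 32.7 CPM against 5.57 and 5.36 CPM. Osr1 was seen in 37 and 29 members and Klf5 in 32 and 30. In replicate 1 a barcode held 42 of the 157 Osr1 UMIs of the members. Dcn, which encodes the matrix proteoglycan decorin, stood at 39.3 and 29.3 CPM against 3.16 and 4.92 CPM.

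Other genes of that group came from few members. Fabp1, a fatty acid binding protein of liver and intestine, stood at 28.6 and 23.9 CPM against 1.01 and 2.35 CPM, but 1 barcode held 60.7 and 65.3% of its UMIs and 6 and 7 members had any. Pyy, a gut hormone, stood at 4.59 and 43.4 CPM, and 1 barcode held 61.8% of its UMIs in replicate 2. DESeq2 did not call Pyy (adjusted p = 0.682). Nepn, which encodes the secreted protein nephrocan, stood at 79.6 and 46.3 CPM against 9.54 and 10.9 CPM and was seen in 21 and 16 members. At E8.5 Nepn was level between the groups, with 43.7 CPM in members and 44.9 CPM in the others.

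The 10 genes named at the low end included transcription factors known from placodes and surface ectoderm (Dlx5, Six3 and Tfap2a) and genes known from neurons (Nefm and Neurod1). Dlx5 stood at 0.51 and 0.976 CPM in members and at 31.4 and 33.5 CPM in other Epcam-positive barcodes, with 1 UMI in 1 member and 2 UMIs in 2 members at E10.5. Fgf8, a signal of several embryonic epithelia, stood at 10.2 and 13.7 CPM against 82.9 and 79.0 CPM, and Sostdc1, an antagonist of BMP and Wnt signals, at 12.8 and 8.78 CPM against 88.7 and 60.8 CPM. Six3 had no UMI in members of replicate 1 and 9.27 CPM in replicate 2, against 39.8 and 46.5 CPM, and its call was not made with DESeq2. Aldh1a3, Sct, Nefm, Tfap2a and Neurod1 had log2 fold changes between -2.66 and -2.44.

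The regional genes divided the members. A UMI of Sox2 was found in 30 of 53 members at E8.5 (56.6%, 42.3 to 70.2%) and in 66 of 91 in each E10.5 library (72.5%, 62.2 to 81.4%). Cdx2 was found in 15 members at E8.5 (28.3%, 16.8 to 42.3%) and in 21 (23.1%, 14.9 to 33.1%) and 24 (26.4%, 17.7 to 36.7%) at E10.5. Nkx2-1 was found in 2 members at E8.5 (3.77%, 0.46 to 12.98%) and in 15 (16.48%, 9.53 to 25.7%) and 10 (10.99%, 5.40 to 19.3%) at E10.5. Pdx1 was the rarest at E10.5, in 5 (5.49%, 1.81 to 12.4%) and 6 (6.59%, 2.46 to 13.8%), and was in 2 members at E8.5. Only 7 members at E8.5 and 3 and 3 at E10.5 had a UMI of none of the 4 genes. After thinning to 5000 UMIs Sox2 was seen in 26.4, 41.8 and 48.4% of the members, Cdx2 in 15.1, 16.48 and 21.98%, Nkx2-1 in 1.89, 12.1 and 7.69%, and Pdx1 in 1.89, 1.10 and 2.20%. The order of Sox2, Cdx2, Nkx2-1 and Pdx1 at E10.5 held before and after thinning, though the unthinned intervals of Nkx2-1 overlapped those of both Cdx2 and Pdx1 in each library.

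**Figure D3:**
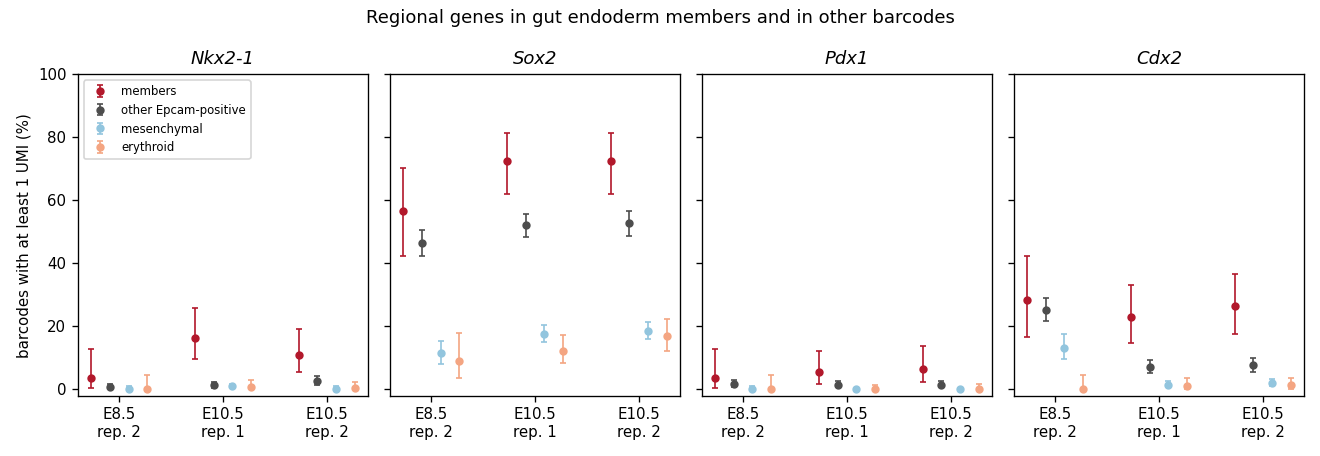
Share of barcodes with at least 1 UMI (y axis, percent) of Nkx2-1, Sox2, Pdx1 and Cdx2 in each library (x axis) for members, other Epcam-positive barcodes, mesenchymal barcodes and erythroid barcodes. Bars are exact 95% binomial intervals. Cdx2 stood apart between members and other Epcam-positive barcodes at E10.5 (23.1 and 26.4% against 7.09 and 7.62%), and its intervals overlapped at E8.5.

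The share of barcodes with a UMI in groups outside the epithelium differed between these genes. In the mesenchymal barcodes of E10.5 Sox2 was seen in 17.7 and 18.6%, Cdx2 in 1.53 and 2.07%, Nkx2-1 in 0.942 and 0.259% and Pdx1 in none. In erythroid barcodes, with over 10% of UMIs from globin genes, Sox2 was seen in 12.3 and 16.8% at E10.5. Member shares of all 4 genes lay above those of both groups at E10.5. At E8.5 Cdx2 was seen in 13.3% of mesenchymal barcodes, with an interval up to 17.5%, and its interval in members began at 16.8%.

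Against other Epcam-positive barcodes the 4 genes differed at E10.5 in unequal measure. Nkx2-1 stood at 28.1 and 17.6 CPM in members and at 3.43 and 3.45 CPM in the others (log2 fold change 2.70 ± 0.26, adjusted p = 2.84e-05 by edgeR). Cdx2 stood at 47.9 and 59.5 CPM against 13.1 and 13.96 CPM (1.98 ± 0.14, adjusted p = 1.32e-06 by edgeR). Pdx1 stood at 6.12 and 11.2 CPM against 2.49 and 2.06 CPM, with a log2 fold change of 1.91 ± 0.35. After thinning only 1 and 2 members had a UMI of it. Sox2, which other epithelia of the embryo also express, stood at 146 and 161 CPM against 121 and 111 CPM, with a log2 fold change of 0.39 ± 0.08 (adjusted p = 0.00993 by edgeR), and its call was lost after thinning. At E8.5 Cdx2 was lower in members, at 30.9 against 39.0 CPM.

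Regional genes were also counted together in the same barcode. No member of either E10.5 library had UMIs of both Nkx2-1 and Cdx2, nor of both Nkx2-1 and Pdx1, and at E8.5 1 member had both Nkx2-1 and Cdx2. Pdx1 and Cdx2 met in 1 of 5 members with Pdx1 in E10.5 replicate 1 and in 0 of 6 in replicate 2. Members with Nkx2-1 and Pdx1 are too few for these zeros to be read as separation, which was not tested. Nkx2-1 and Sox2 were seen together in 10 of 15 and 7 of 10 members with Nkx2-1 at E10.5. Sox2 and Cdx2 met in 6 of 21 and 8 of 24 members with Cdx2, and in 1 of 15 at E8.5. With at least 2 UMIs of both genes, the Sox2 and Cdx2 pair fell to 1 and 4 members at E10.5.

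Of the 20 foregut and pharyngeal genes tested, 8 were higher in members and 6 lower, where 4.2% of all genes tested were higher and 3.55% lower. The lists share genes, among them Nkx2-1, Irx1, Isl1 and Sox9, so that some calls are counted in more than 1 list. Isl1 stood at 64.3 and 85.9 CPM against 36.5 and 44.8 CPM, and Nkx2-5 at 10.7 and 33.2 CPM against 5.51 and 7.49 CPM. Pax9, a gene of pharyngeal pouches, stood at 14.3 and 40.5 CPM against 13.6 and 9.70 CPM, and its call was not made with DESeq2. Foxe1, a thyroid and pharynx factor, stood at 24.5 and 46.8 CPM against 7.25 and 18.3 CPM and lost its call without marked doublets. The lower genes included Eya1, Otx2, Irx3 and Pax8, which are also used in placodes, neural tissue or kidney, with Eya1 at 6.12 and 5.37 CPM against 25.0 and 23.1 CPM. Otx2, Irx3 and Pax8 were not past the threshold with DESeq2. Of 11 lung bud genes 5 were higher (Nkx2-1, Id2, Foxp1, Foxp2 and Irx1) and 2 lower (Sox9 and Etv5), and Foxp2, Irx1 and Etv5 lost their calls with DESeq2. Foxp1 stood at 195 and 169 CPM against 107 and 124 CPM, and Id2 at 481 and 554 CPM against 366 and 383 CPM.

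Of 14 pancreas and duodenum genes tested 8 were higher and 3 lower, with a median log2 fold change of 1.29. Over all genes tested the shares were 4.2% higher and 3.55% lower. A gene with few UMIs in the others could pass the low-count filter only through members, so this count and median are a description. Nkx6-2 stood at 46.4 and 24.9 CPM against 10.54 and 8.45 CPM (1.88 ± 0.24). Rfx6, a factor of gut and islet endocrine lineages, stood at 6.12 and 4.39 CPM against 0.336 and 0.735 CPM and was seen in 10 and 8 members. Mnx1 stood at 10.2 and 7.32 CPM against 2.55 and 1.54 CPM. Nkx6-1 and Nkx2-2 lost their calls without marked doublets. Pax6 and Neurod1, which neurons and placodes also use, were lower, Pax6 at 9.18 and 5.85 CPM against 31.2 and 30.7 CPM. Of 20 midgut and hindgut genes, only Cdx2 and Hoxa10 were higher and none lower, and Hoxa10 (17.9 and 20.003 CPM against 11.6 and 7.93 CPM) was not past the threshold with DESeq2.

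At E10.5 each list of other cell types had more lower than higher genes in members, except the germ cell list, which had neither. Over all genes tested the shares were 4.2% higher and 3.55% lower. Genes of the hepatic and cardiomyocyte lists changed direction with the comparison group or without marked doublets. Of 11 surface ectoderm genes 8 were lower, with a summed level of 121 and 93.2 CPM in members and 374 and 303 CPM in the others. Wnt6 stood at 36.2 and 18.1 CPM against 145 and 111 CPM (log2 fold change -2.26 ± 0.21), and Tfap2a and Trp63 were also lower. Of 17 floor plate and neural genes 6 were lower and 2 higher (Nkx6-1 and Spon1), with summed levels of 112 and 128 CPM against 200 and 174 CPM, and 7 and 8 members held at least 10 UMIs of that list. At E8.5 the order of the summed levels was the other way for this list (120 CPM in members against 78.7, with 43.7% of the UMIs in 1 member), for mesenchyme (83.8 against 59.4, with 49.3% in 1 member) and for notochord (49.5 against 36.6). The nephric duct list turned as well, with 375 and 378 CPM in members against 361 and 370 CPM at E10.5 and 378 against 465 CPM at E8.5. The germ cell list was nearly level, at 46.41 and 60.01 CPM in members against 46.14 and 57.45 CPM at E10.5 and 83.24 against 83.44 CPM at E8.5. Spon1, a secreted protein of the floor plate, stood at 10.2 and 9.76 CPM against 4.84 and 4.26 CPM at E10.5, a call that was lost with DESeq2 and without marked doublets. Of 5 notochord genes tested Shh was higher and Sox9 and Col2a1 lower. The part of floor plate or notochord cells in the values of Shh was not tested. Of 11 mesenchyme genes 5 were lower, of which Prrx1, Twist1 and Pdgfra lost their calls without marked doublets, of 6 erythroid genes 4 (none of them with DESeq2), of 9 nephric duct genes 3 with 1 higher (Wfdc2), of 5 endothelial genes 1 (Egfl7), and of 2 germ cell genes none.

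The summed erythroid level was 465 and 461 CPM in members against 1435 and 659 CPM in the others. Per barcode the median globin share was nearly level, at 0.0457 and 0.0463% of UMIs in members and 0.0494 and 0.0472% in the others, whose highest barcodes held 27.6 and 4.63% where no member held over 0.117%. In members 1 and 0 of the 7 genes were at 0 in replicates 1 and 2. Of 6 cardiomyocyte genes tested 3 were lower (Tnni1, Actc1 and Tnnt2). Without marked doublets Actc1 and Tnnt2 turned to log2 fold changes of 0.87 and 0.15, neither past the threshold, and the call of Tnni1 was lost. Myl7, of the same list, was then called higher in members (log2 fold change 0.74, edgeR adjusted p = 4.44e-04). Of 11 hepatic and visceral endoderm genes 2 were lower, Afp at 16.3 and 1.95 CPM against 44.3 and 33.9 CPM and Apoa2 at 26.5 and 7.32 CPM against 53.1 and 38.6 CPM, neither of them past the threshold with DESeq2. The rule itself kept barcodes with 10 or more Ttr UMIs out of the members and left them in the comparison. When the comparison held no barcode with FoxA, T or 10 Ttr UMIs, Afp, Apoa2, Trf and Serpina1a were called higher in members by edgeR. The log2 fold changes were then 3.09 for Afp (adjusted p = 0.00532), 1.41 for Apoa2 (0.0461), 1.93 for Trf (0.0122) and 4.36 for Serpina1a (9.09e-05). The direction of these 4 genes depended on the comparison group.

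Promoters were searched for TGTTTAC, a core letter string that forkhead proteins such as Foxa1 and Foxa2 bind, on both strands (GTAAACA on the other) in the 250 bases before each RefSeq start. Of 27025 genes in the table used, 3.54% held it, as did 2.66% of 9185 tested genes that matched by symbol. It was in 2.82% of 390 genes higher in members and in 4.95% of 323 genes lower, so that the higher genes held it about as often as the tested genes did. Of the 10 genes named for the highest fold 5 were in the table and 1 of them, Nepn, held it, as did 2 of the 7 FoxA and regional genes matched, Cdx2 and Foxa1. The windows around these matches are shown because they are the matches in genes that define or lead the set. They are given 5′ to 3′ on the strand of the gene in build GRCm38.p6, with the letter string in capitals.
Nepn, chr10:52391437-52391469, plus strand: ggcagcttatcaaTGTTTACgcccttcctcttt
Cdx2, chr5:147307270-147307302, minus strand: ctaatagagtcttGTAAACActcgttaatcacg
Foxa1, chr12:57546233-57546265, minus strand: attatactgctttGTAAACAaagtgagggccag
The string begins 158 bases before the start of Nepn, 40 before that of Cdx2 and 141 before that of Foxa1. A match is a description of letters and not a bound site.

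Members were then put into classes by 1 regional gene at 2 or more UMIs. The Nkx2-1, Pdx1 and Cdx2 classes had none of the other 2 genes of these 3, and the Sox2 class had none of all 3. Sox2 was left free in the Nkx2-1, Pdx1 and Cdx2 classes. In E10.5 replicates 1 and 2 it stood at 122 and 123 CPM in the Nkx2-1 class and at 70.7 and 55.3 CPM in the Pdx1 class. The Cdx2 class held 18.6 and 92.6 CPM of Sox2, and the Sox2 class 230 and 231 CPM. At E10.5 the Nkx2-1 class held 12 and 10 members in replicates 1 and 2, the Sox2 class 37 and 44, the Cdx2 class 14 and 20, the Pdx1 class 3 and 5, and 25 and 12 members were in no class. At E8.5 the same classes held 1, 23, 12 and 0 members and 17 were in no class. The Pdx1 class had fewer than 10 members in each library and was not tested. Each of the other 3 classes was compared with the mean of the other 2 over UMI sums per library, among 4134 genes. The class genes themselves are not results.

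The Cdx2 class differed most, with 109 genes higher (2.64% of those tested) and 28 lower (0.677%), 3.31% in either direction. Of 24 midgut and hindgut genes besides Cdx2, 9 passed the count filter of this contrast. Of these, 8 were higher and none lower, all of them Hox genes of the posterior trunk. A gene with few UMIs in the other classes could pass the filter only through the Cdx2 class, so the count is a description. Hoxa10 stood at 121 and 75.5 CPM in the Cdx2 class, with 26 and 31 UMIs, and had no UMI in the Nkx2-1 class and 0 and 1 UMIs in the Sox2 class (adjusted p = 1.81e-05 by edgeR). Hoxc9 stood at 97.8 and 70.7 CPM in the Cdx2 class, 4.37 and 5.51 CPM in the Sox2 class and 0 in the Nkx2-1 class. At E8.5 the 12 members of the Cdx2 class held 86.0 CPM of Hoxc9 and 69.3 CPM of Hoxa10, and the 23 members of the Sox2 class held no UMI of either. Fabp1 stood at 205 and 110 CPM in the Cdx2 class and had no UMI in the Nkx2-1 and Sox2 classes of any library. At E10.5 only 5 of 14 and 4 of 20 members of the Cdx2 class had a UMI of Fabp1, and 1 barcode held 77.3 and 71.1% of them. At E8.5 8 of 12 members had one, with 28.9% of the UMIs in 1 barcode. Hoxa10 was seen in 9 and 7 members of the class and Hoxc9 in 9 and 7 at E10.5. The other leading genes were 2610528A11Rik (783 and 358 CPM), Cpne8 and Serpina1a, a gene of hepatocyte and visceral endoderm secretion that stood at 37.3 and 43.9 CPM and at 0 in the Nkx2-1 and Sox2 classes at E10.5, with UMIs in 3 and 7 members of the Cdx2 class. Rbp4, the retinol carrier, stood at 429 and 231 CPM in the Cdx2 class, 20.7 and 21.1 in the Sox2 class and 0 and 23.6 in the Nkx2-1 class. Krt19 stood at 293 and 222 CPM in the Cdx2 class, 78.6 and 53.2 CPM in the Sox2 class and 15.9 and 33.1 CPM in the Nkx2-1 class.

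Of the genes lower in the Cdx2 class, Dcn had no UMI in that class at E10.5 and stood at 42.6 and 40.4 CPM in the Sox2 class and at 21.2 and 61.5 CPM in the Nkx2-1 class. Capn6 stood at 4.66 and 4.87 CPM in the Cdx2 class, 48.0 and 47.7 CPM in the Sox2 class and 106 and 113 CPM in the Nkx2-1 class. Osr1 stood at 4.66 and 7.31 CPM against 87.3 and 60.6 CPM in the Sox2 class. Its log2 fold change against the mean of the other 2 classes was -2.80. When classes were cut at 1 UMI it was 0.38 and not past the threshold (edgeR adjusted p = 0.755). Irx3 and Gm15050 were also lower, and neither was past the threshold with DESeq2.

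The Nkx2-1 class had 15 genes higher (0.363%) and 9 lower (0.218%), 0.581% in either direction, and 19 and 15 with library as a replicate block. Irx1 led them and stood at 138 and 156 CPM in the Nkx2-1 class, at 7.64 and 28.5 CPM in the Sox2 class and at 13.98 and 7.31 CPM in the Cdx2 class (log2 fold change 3.42 ± 0.43, adjusted p = 5.06e-04 by edgeR). Irx5 stood at 68.9 and 66.2 CPM and Irx3 at 47.7 and 89.8 CPM in the Nkx2-1 class, so that 3 Iroquois homeobox genes were among the 5 named. The only member of this class at E8.5 had no UMI of any of the 3. A gene with few UMIs in the other classes could pass the count filter only through the Nkx2-1 class. The count of Iroquois genes is therefore a description. Shh was also higher in this class, at 249 and 199 CPM against 40.4 and 62.4 CPM in the Sox2 class and 65.2 and 115 CPM in the Cdx2 class. It was seen in 11 and 8 members of the class, and 1 barcode held 47.6% of its UMIs in replicate 2. H2-Q2 and Capn6 complete the 5. On the low side, Nrp1, a receptor of semaphorins and VEGF, had no UMI in the Nkx2-1 class of any library and stood at 43.7 and 18.4 CPM in the Sox2 class and 74.5 and 46.3 CPM in the Cdx2 class at E10.5. Cald1 and Bambi, a pseudoreceptor of TGF-beta signals, were lower, Cald1 at 31.8 and 28.4 CPM against 138 and 137 CPM in the Sox2 class, and Fhl1 and Krt19 complete the 5. Bambi was not past the threshold with DESeq2 or with RLE factors, and DESeq2 gave no adjusted p for Irx5, Irx3, H2-Q2, Nrp1 and Fhl1.

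The Sox2 class had 21 genes higher (0.508%) and 4 lower (0.0968%), 0.605% in either direction, and 22 and 8 with library as a replicate block. Foxe1 stood at 36.0 and 77.1 CPM in the Sox2 class, had no UMI in the Nkx2-1 class at E10.5 and 0 and 1 UMIs in the Cdx2 class. At E8.5 13 UMIs of Foxe1 lay in the only member of the Nkx2-1 class, and the Sox2 class held 1. Vgll2, a cofactor of TEAD proteins, stood at 46.9 and 148 CPM in the Sox2 class against 0 UMIs in the Nkx2-1 class and 4.66 and 7.31 CPM in the Cdx2 class, and came from 7 of 37 and 8 of 44 members. Gm12446, Sfrp1, an inhibitor of Wnt signals, and Pbld2 were the others named, and Sfrp1 stood at 57.8 and 56.0 CPM. As in the other contrasts, a gene with few UMIs in the other classes could pass the count filter only through the Sox2 class. Such calls of higher genes are therefore a description. Shh, Ociad2, Slc16a1 and Gpc3 were the 4 lower genes, with Shh at a log2 fold change of -1.50 ± 0.24 (adjusted p = 0.00188 by edgeR). Pbld2, Ociad2 and Slc16a1 were not past the threshold with DESeq2. The Shh level of the Nkx2-1 class enters both of these contrasts.

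**Figure D4:**
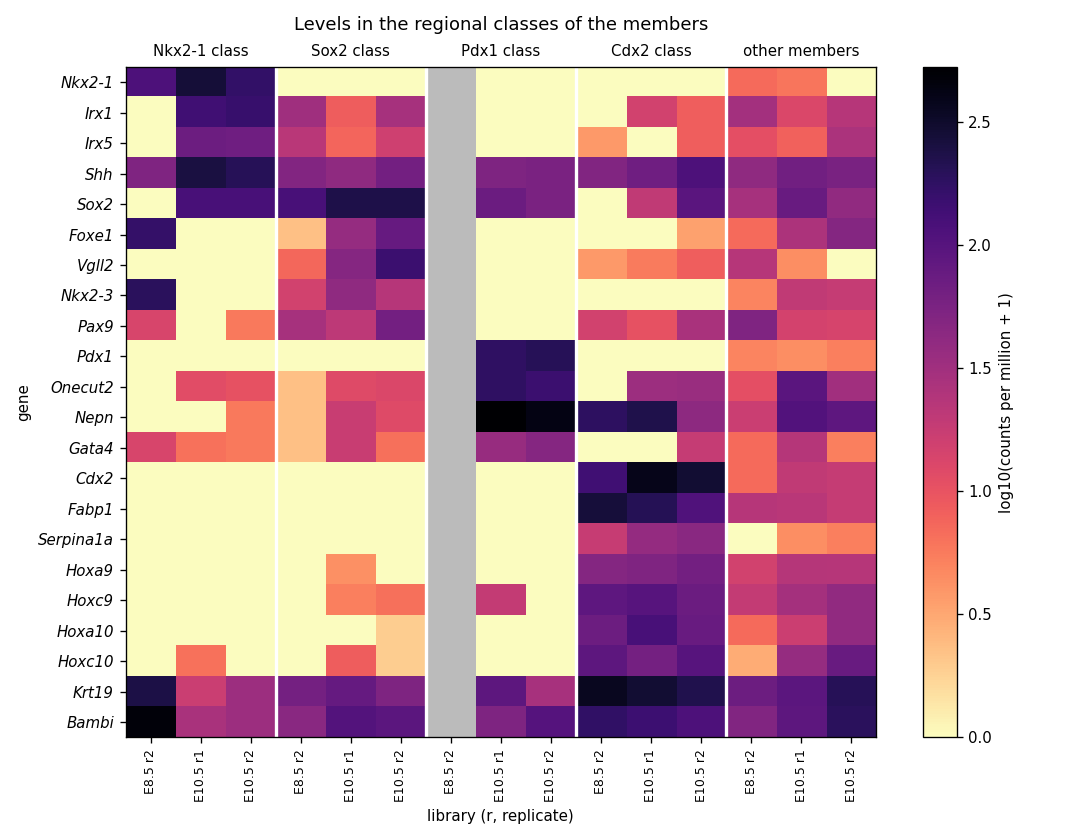
Levels of 22 genes (rows) in the regional classes of the members (blocks of columns, 1 column per library), coloured by log10 of CPM plus 1. The E8.5 library had no member in the Pdx1 class, shown in grey, and 1 in the Nkx2-1 class. Hox genes were darkest in the Cdx2 class, Irx1 and Irx5 in the Nkx2-1 class at E10.5, and Nepn and Onecut2 in the Pdx1 class.

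The Pdx1 class, with 3 and 5 members at E10.5, is given as values alone. Nepn stood at 530 and 415 CPM there, above the 228 and 41.4 CPM of the Cdx2 class. Onecut2 stood at 177 and 148 CPM, Gata4 at 35.4 and 46.1 CPM and Sox9 at 141 and 249 CPM, each above the other named classes in both libraries. In replicate 1 a barcode held 90% of the Onecut2 UMIs of the class. The levels of Gata4 rest on only 2 and 5 UMIs in the class, and those of Sox9 on 8 and 27. No UMI of Hoxa9, Hoxa10 or Fabp1 was found in this class. Members in no class at E10.5 held 20.5 and 17.4 CPM of Fabp1 and 94.1 and 30.5 CPM of Onecut2, between the values of the classes.

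Between stages the members differed in some genes by at least 2-fold in the E8.5 library against both E10.5 libraries. This comparison has no test, since E8.5 had 1 library. Of 4868 genes with at least 20 CPM on either side, 34 were higher at E8.5 (0.698%) and 140 lower (2.88%). These counts depended on depth and on the libraries, with 184 and 352 after thinning, which kept 18 of the 34 and 91 of the 140. Without E10.5 replicate 1 there were 57 and 214, and without replicate 2 there were 73 and 204. Lin28a, an RNA-binding protein of early embryonic cells, stood at 157 CPM (138 to 176, exact Poisson interval) at E8.5 and at 55.6 and 62.0 CPM at E10.5. Prtg stood at 209 CPM against 86.7 and 86.4, and Nr6a1, a nuclear receptor of early embryos, at 50.1 CPM against 14.8 and 13.2. These 3 were seen in 50, 47 and 34 of the 53 E8.5 members, so that the level did not rest on few barcodes. Car4 stood at 258 CPM against 86.2 and 82.9, Ifitm1 at 300.4 CPM against 122 and 86.4, and Apela, a peptide ligand of the apelin receptor, at 193 CPM against 70.4 and 85.9. Spink1, a trypsin inhibitor, stood at 266 CPM against 28.1 and 28.3, with 38.3% of its UMIs in 1 member. Ghrl and Trh, both hormone genes, were high through single members, with 95.1 and 66.7% of their UMIs in 1 barcode.

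The larger group was lower at E8.5. Mt1 and Mt2, metallothioneins that bind zinc and copper, stood at 104 and 79.7 CPM at E8.5, where E10.5 held 550 and 408 CPM of Mt1 and 357 and 292 CPM of Mt2. Ddit4, a stress-induced inhibitor of mTOR, stood at 12.8 CPM against 78.0 and 59.5, Akirin2 at 25.6 CPM against 132 and 131, Ppp1r14b at 112 CPM against 525 and 459, and Mafg at 15.7 CPM against 51.0 and 50.3. Hba-a1, Hba-x and Hbb-y were also among the 10, with Hbb-y at 53.0 CPM against 232 and 225. The summed erythroid list was 111 CPM in E8.5 members and 460 CPM in the other Epcam-positive barcodes of that library, where 1 barcode had 15.003% globin and the medians were 0.0101 and 0.0117%. The part of free globin RNA in the stage difference was not tested. Xist, the RNA of the inactive X chromosome, stood at 650 CPM against 2081 and 2060, and the sex of the embryos is not in the labels.

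The 4 regional genes were at a lower level in E8.5 members than in either E10.5 library. For Cdx2 and Pdx1 the exact Poisson intervals of E8.5 and E10.5 replicate 1 overlapped. Nkx2-1 stood at 6.99 CPM at E8.5 and 28.1 and 17.6 CPM at E10.5, with 75% of its E8.5 UMIs in 1 member. Sox2 stood at 62.9 CPM against 146 and 161, and it was lower at E8.5 in the other Epcam-positive barcodes too, at 53.6 CPM against 121 and 111. Otx2, an anterior gene, went the other way, at 41.9 CPM at E8.5 and 9.69 and 12.7 CPM at E10.5, with UMIs in 12 of 53 members at E8.5. No midgut or hindgut gene of the 5 at sufficient level was past 2-fold. Of the 3 endoderm transcription factors at that level Onecut2 was lower at E8.5, at 3.49 CPM against 42.8 and 25.4, and Gas1 was the only hedgehog gene of 5 past 2-fold, at 9.90 CPM against 30.1 and 30.2. Shh stood at 46.6 CPM at E8.5, under 2-fold below the 70.9 and 85.9 CPM of E10.5.

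**Figure D5:**
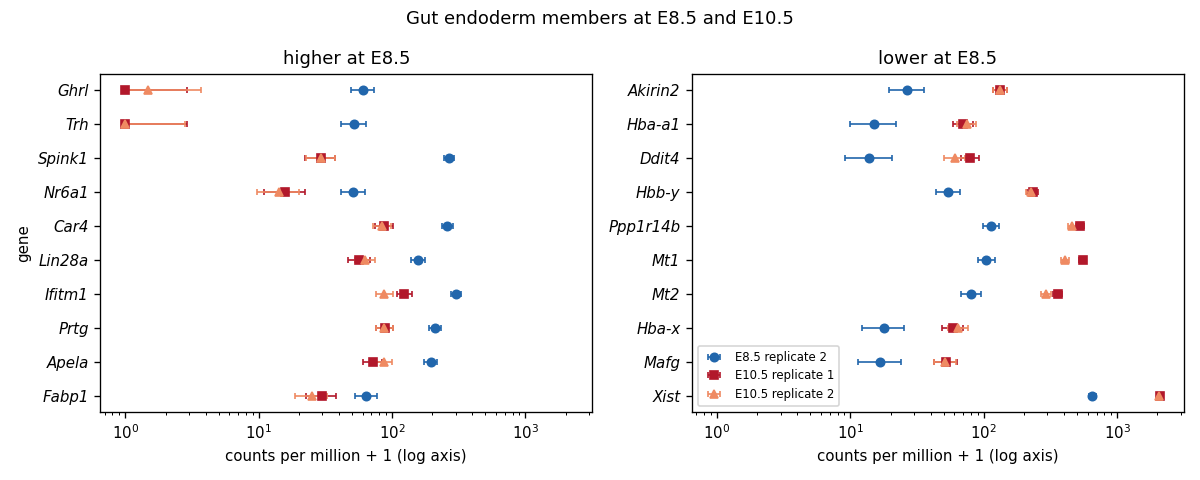
Levels in members (x axis, CPM plus 1 on a log axis, with exact Poisson 95% intervals) of the 10 genes with the largest fold in each direction between E8.5 replicate 2 and the E10.5 libraries. The E8.5 points lie apart from both E10.5 points for every gene shown. For Ghrl 95.1% of the E8.5 UMIs came from 1 member.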

How the data were processed

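The matrices deposited by the authors hold whole-number UMI counts of 10x 3′ libraries, without normalization, 1 matrix for each of 10 libraries. The submitters' processing notes name Cell Ranger 2.1.1, Seurat 3.1.1 and mm10, and the deposited file headers name version 3.1.0 in 9 matrices and 3.0.0 in 1. For dissociation the labels give trypsin and the methods collagenase II, and for the kit v2 and v3. Counts were not corrected for free RNA. The 3 embryo libraries held 151735273 (E8.5 replicate 2), 259041468 and 254118869 UMIs (E10.5 replicates 1 and 2), and E8.5 replicate 1, E16.5 replicate 2 and P3 replicate 2 were not used here.

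Barcodes with at least 2000 UMIs and 500 genes were kept, with no mitochondrial ceiling. Members, regional classes and gene lists were chosen with earlier results of these data known. Scrublet (scanpy 1.11.5) marked 0.053, 0 and 2.97% of barcodes when left to choose its threshold, so the number expected at 0.8% per 1000 barcodes was marked. Marked barcodes were kept in the main analysis. UMIs were summed per library and group, and the sums of the E10.5 libraries were tested with edgeR 4.0.16 (R 4.3.3; TMM, filterByExpr, quasi-likelihood test, Benjamini-Hochberg over all genes tested, threshold 0.05) without a replicate block. Both groups of a contrast come from the same library, so that the library pairs them, and the block is an alternative. The code was tested on simulated counts. Standard errors are those of the log2 fold change. Shares carry exact (Clopper-Pearson) 95% intervals. Genes were named by rule: the 10 largest folds per direction (5 per class) among genes past the threshold with the same sign in both libraries and at least 20 CPM in the higher group; for stages, the 10 largest folds with at least 50 CPM; and list members in order of adjusted p. Apoc2 was left out of its list, since 2 gene identifiers share that symbol. Alternatives were DESeq2 1.42.0, RLE factors, no low-count filter, the block, a mitochondrial ceiling, no marked doublets, a stricter comparison group, thinning, other thresholds and leaving out a library. Some genes that these rules or lists name are counted but not reported here.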

Additional observations from a re-analysis of the deposited data

Results flagged for a closer look

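Of the 510 genes called higher in members at E10.5, 104 were at a lower level in members than in other Epcam-positive barcodes at E8.5, and of the 431 called lower 67 were at a higher level. Given here are 5 of these, named by fold or in a list, whose levels in both groups at E8.5 sum to at least 20 CPM. The difference between the stages was not tested, since E8.5 had 1 library. At E8.5 the others held 21 barcodes with T and 41 with 10 or more Ttr UMIs that had at least 2 FoxA UMIs. Their part in these levels was not tested. Cdx2 stood at 30.9 CPM in members against 39.0 CPM in the others at E8.5, and at 47.9 and 59.5 against 13.1 and 13.96 CPM at E10.5. Otx2 stood at 41.9 against 22.6 CPM at E8.5, and at 9.69 and 12.7 against 20.3 and 21.2 CPM at E10.5. Col2a1, a cartilage and notochord collagen, stood at 36.7 against 29.0 CPM at E8.5, and at 30.1 and 49.3 against 66.5 and 67.4 CPM at E10.5. Wfdc2 stood at 341 against 410.1 CPM at E8.5, and at 298 and 335 against 240.4 and 264 CPM at E10.5. Nepn was nearly level at E8.5 (43.7 against 44.9 CPM), and at E10.5 it was higher in members.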

How the results depend on the processing

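There were 98 called genes named from the lists or by fold in members. All kept their call under RLE factors, the 5% mitochondrial ceiling, no low-count filter and the replicate block. All kept their direction in each E10.5 library taken alone, which gives 1 sum per group and no test. The naming rule had required this of the genes named by fold. Of the 98 calls DESeq2 kept 67 and removal of marked doublets 84. Thinning kept 38 and lost 50 of those it could fit. With library as a replicate block 573 genes were higher and 521 lower, and no named call changed. Without normalization, an alternative chosen after seeing the data, Col1a2 and, in the Nkx2-1 class, Bambi lost their calls, as Bambi also did with RLE factors. Of 29 class genes named DESeq2 kept 18 calls and gave no adjusted p for 5.

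The share of members moved with the FoxA minimum, to 1.63, 0.995 and 1.02% (E8.5, E10.5 replicates 1 and 2) at 1 UMI and to 0.601, 0.409 and 0.448% at 3 UMIs, and to 0.0967, 0.0873 and 0.0891% after thinning. For members against other Epcam-positive barcodes DESeq2 gave 250 higher and 165 lower, no low-count filter gave 766 lower, and thinning gave 119 and 80. In the Nkx2-1 class no low-count filter gave 45 and 45, and the lower count was 15 with the block, 17 with classes at 1 UMI and 15 without marked doublets. In the Cdx2 class no filter gave 194 and 46, and DESeq2 gave 13 lower. In the Sox2 class no filter gave 77 and 16, DESeq2 10 and 2, and the lower count was 8 with the block, 21 at 1 UMI and 7 without marked doublets. Between stages thinning gave 184 higher and 352 lower at E8.5, without E10.5 replicate 1 there were 57 and 214, and without replicate 2 there were 73 and 204. Regional shares after thinning moved to 26.4, 41.8 and 48.4% for Sox2, to 1.10 and 2.20% for Pdx1 at E10.5 and to 15.1% for Cdx2 at E8.5, and at 2 UMIs Sox2 moved to 54.9% in E10.5 replicate 1 and Pdx1 to 0% at E8.5. Against the stricter comparison group Afp, Apoa2, Trf and Serpina1a turned to log2 fold changes of 3.09, 1.41, 1.93 and 4.36, all 4 past the edgeR threshold. Without marked doublets Actc1, Tnnt2 and Myl7 turned to 0.87, 0.15 and 0.74, of which Myl7 passed. With classes at 1 UMI Osr1 in the Cdx2 class turned to 0.38 and did not pass. Causes were not tested, apart from the fewer UMIs that thinning leaves and the genes that the filter removes.

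The limits are 2 libraries at E10.5 and 1 at E8.5, tested classes of 10 to 44 members at E10.5, and a rule on UMIs that depends on depth.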

Other observations

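Peg3, Zim1 and Usp29, neighbours in an imprinted cluster in which Zim1 is expressed from the maternal allele and Peg3 and Usp29 from the paternal one, were all higher in members at E10.5. They and the other imprinted genes given here were chosen after their values were seen. Peg3 stood at 506 and 513 CPM in members of replicates 1 and 2 against 184 and 194 CPM in other Epcam-positive barcodes (log2 fold change 1.42 ± 0.06, adjusted p = 3.49e-08 by edgeR). Zim1 stood at 23.0 and 27.3 CPM against 4.63 and 6.24 CPM (2.20 ± 0.22), and Usp29 at 42.3 and 49.3 CPM against 15.7 and 18.2 CPM (1.42 ± 0.14). At E8.5, which the fit did not use, members were also above the others, with Peg3 at 379.5 against 191 CPM, Zim1 at 9.90 against 3.20 CPM and Usp29 at 30.3 against 13.7 CPM.

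Of 7 other imprinted genes looked at, 3 passed the test, where 7.75% of all 12142 genes tested did. The 7 were chosen after their values were seen, so this count does not speak for imprinted genes as a set. H19 was higher by a log2 fold change of 0.44 and Grb10 by 0.34 at E10.5, the latter with an edgeR adjusted p of 0.036 and no call with DESeq2, and H19 was lower in members at E8.5, at 622 against 756 CPM. Dlk1 was lower, at 122 and 196 CPM against 406 and 428 CPM. Igf2, Meg3, Cdkn1c and Plagl1 did not pass the test, with log2 fold changes between -0.03 and 0.13.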
